A study of Rattus norvegicus with 27 samples.

Results

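Nuclear-encoded subunits of the oxidative phosphorylation system were followed in prefrontal tissue (medial prefrontal cortex, mPFC) from 27 male Wistar rats. All rows of the deposited count table were taken whose rat gene symbol begins with Ndufa, Ndufb, Ndufc, Ndufs, Ndufv, Sdha to Sdhd, Uqcr, Cox4 to Cox8 or Atp5, leaving out assembly factors and pseudogenes, which gave 111 of 36865 rows. These 111 members comprised 48 genes of complex I, 4 of complex II, 11 of complex III, 21 of complex IV and 27 of complex V. The rule used gene names only and no measured value, though it was set with earlier results of these data known. In the study, the Wistar rats had passed through repeated anxiety tests (elevated plus-maze, light-dark box and open field), and the RNA of mPFC tissue, taken from animals at rest, was sequenced as 1 library per rat. The labels also list acoustic startle and fear conditioning, which the study's methods give only for rats of the Long-Evans strain. All 27 libraries form 1 group by their labels, which give the genotype as Wistar, the treatment as learned helplessness and the molecule as polyA RNA. No untreated group and no anxiety score were used here, so the members were described over the 27 rats and against measures taken from the same libraries.

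Oxidative phosphorylation is carried out in the inner mitochondrial membrane. Complexes I and II feed electrons from NADH and succinate into ubiquinone, complex III passes them to cytochrome c, complex IV hands them to oxygen, and complex V uses the resulting proton gradient to make ATP. Apart from complex II, whose subunits are all nuclear, the complexes also hold subunits coded in mitochondrial DNA, which were not analysed here because no row of the table matched their symbols. Neurons draw most of their ATP from this pathway, and synapses are rich in mitochondria.

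Library totals ran from 4907255 to 12771309 counts (median 8168801), and the number in the library name parted them without overlap. The 16 libraries numbered up to 31 held at most 8568317 counts and the 11 from 32 held at least 9404220. These sets are called depth blocks below, and nothing in the labels says what the numbers stand for. The 10 neuron markers, 10 oligodendrocyte markers and 8 astrocyte markers checked were all detected with a mean count of at least 10. Library 3 stood apart in the members. They took 1.91% of its counts, against 1.71% in the next library (19) and 1.37% in the lowest (52). Library 3 also had the lowest neuron marker score (-1.56, a mean z score) and the highest oligodendrocyte marker score (2.28) of the 27. Its astrocyte score (1.53) was the highest too, just above that of library 5 (1.52), and its endothelial score (1.34) came after that of library 35 alone (1.44). Results that rest on library 3 are given with and without it. The part of its cell makeup in the members' counts was not tested. In bulk tissue, fewer cells of a type and less RNA per cell cannot be told apart.

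The members moved together across the rats, and the promoters of 3 of them are shown first. RefSeq promoters of the assembly GRCr8, 300 bases around the start of the gene, were found for 95 of the 111 members and for 68 of the 78 with a mean count of at least 10. The lines show Atp5po, the member that followed the others most closely, Sdha, the one that followed them least, and Cox4i1, the ubiquitous isoform of a nuclear-encoded subunit of complex IV. They were chosen after their values were seen, and no promoter of its partner isoform Cox4i2 was found. Capitals mark matches to the motifs named below.
Atp5po: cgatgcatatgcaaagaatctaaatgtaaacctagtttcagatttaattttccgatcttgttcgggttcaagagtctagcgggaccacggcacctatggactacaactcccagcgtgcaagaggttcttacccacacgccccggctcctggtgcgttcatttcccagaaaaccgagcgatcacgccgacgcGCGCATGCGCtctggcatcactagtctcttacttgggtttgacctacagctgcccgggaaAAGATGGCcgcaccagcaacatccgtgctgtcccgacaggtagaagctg
Sdha: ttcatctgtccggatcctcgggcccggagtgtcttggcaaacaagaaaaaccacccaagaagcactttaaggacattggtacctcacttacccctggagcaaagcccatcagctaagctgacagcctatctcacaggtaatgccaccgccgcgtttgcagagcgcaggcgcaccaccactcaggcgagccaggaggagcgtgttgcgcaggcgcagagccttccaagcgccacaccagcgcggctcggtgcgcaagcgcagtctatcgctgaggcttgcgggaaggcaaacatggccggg
Cox4i1: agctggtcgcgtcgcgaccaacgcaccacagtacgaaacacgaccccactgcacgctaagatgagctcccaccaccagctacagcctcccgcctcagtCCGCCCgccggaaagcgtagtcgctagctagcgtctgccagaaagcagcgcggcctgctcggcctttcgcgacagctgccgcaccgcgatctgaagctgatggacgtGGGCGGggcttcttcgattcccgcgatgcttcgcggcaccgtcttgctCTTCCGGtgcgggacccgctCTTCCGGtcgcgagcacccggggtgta
The Atp5po promoter lies at chr11:44657434-44657733 on the minus strand, that of Sdha at chr1:30764303-30764602 on the plus strand and that of Cox4i1 at chr19:65630133-65630432 on the plus strand. Motifs were searched on both strands as exact letters, and matches on opposite strands may overlap, as both NRF1 matches of Atp5po do. The Atp5po promoter held the NRF1 letters GCGCATGC and the YY1 letters AAGATGGC, that of Cox4i1 held the ETS letters CCGGAAG and the Sp letters GGGCGG, and that of Sdha held none of the 5 motifs searched. Among the 68 members, 21 (30.9%) held the ETS letters, 14 (20.6%) the YY1 letters and 8 (11.8%) the NRF1 letters, against 9.22%, 3.44% and 2.66% of 27457 promoters of the same length. Unlike the 68 members, those promoters were not limited to genes counted in this tissue, so the shares compare unlike sets. The Sp letters stood in 27 members (39.7%) and 34.9% of all promoters, and the ERR letters TCAAGGTCA in 2 members (2.94%) and 0.412%. Among the members that followed the others least, Ndufs1 and Ndufa1 held the ETS letters and Ndufa4l2 the YY1 letters, whereas Sdha held none. Whether the letters go with a member's correlation with the others was not tested. A match is a run of letters and not a measured site.

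Of the 111 members, 31 were listed at 0 in every library, 2 were above 0 with a mean count under 10, and 78 had a mean count of at least 10. The last comprised 36 members of complex I, 4 of complex II, 8 of complex III, 13 of complex IV and 17 of complex V. Values below are counts divided by median-of-ratios size factors (normalized counts), given as the lowest, median and highest of the 27 libraries. They are not divided by transcript length, for which no table was at hand, so counts of different genes are not an order of transcript levels.

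**Figure D1:**
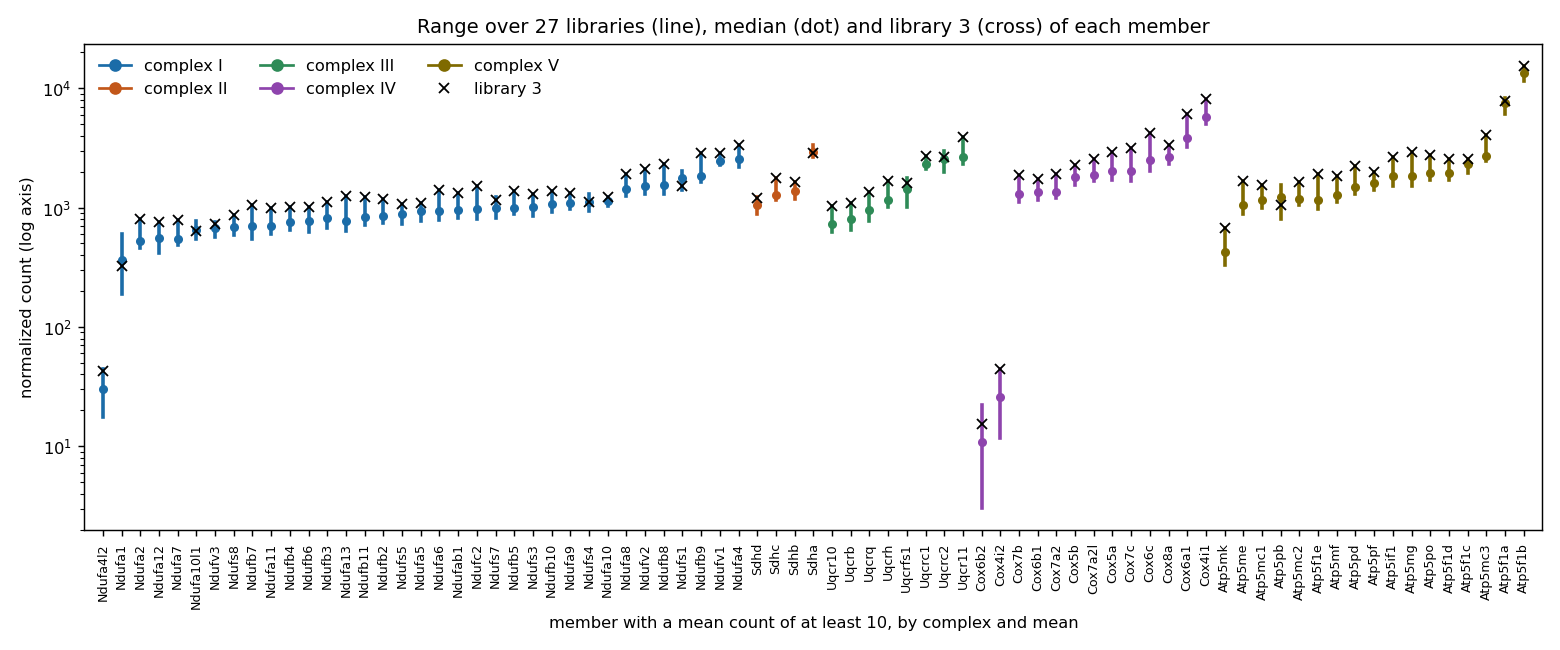
Normalized counts (log axis) of members with a mean count of at least 10, ordered by complex and mean; lines run from the lowest to the highest of 27 libraries, dots are medians and crosses mark library 3. Library 3 is the highest for 61 of the 78 members, and Ndufa4l2, Cox4i2 and Cox6b2 lie far below the rest of their complexes.

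The peripheral arm of complex I carries the cofactors that pass electrons from NADH to ubiquinone. Ndufv1, which binds NADH and the flavin, lay between 2286 and 2840 normalized counts (median 2443). Ndufs1, which carries iron-sulfur clusters, ranged from 1395 to 2018 (median 1768) and was at 1528 in library 3, below its median. Ndufv2, an iron-sulfur subunit beside Ndufv1, ran from 1298 to 2083 (median 1504) and had its highest value in library 3. Further core subunits of the peripheral arm were Ndufs3 (856 to 1289, median 1002), Ndufs7 (824 to 1230, median 993), which holds the cluster next to ubiquinone, and Ndufs8 (584 to 862, median 686). Ndufs3 and Ndufs8 peaked in library 3, whereas Ndufs7 peaked in library 54.

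Accessory subunits of complex I spanned both ends of the spread. Ndufa10 had the smallest SD of log2 values of all 78 members (0.075), with normalized counts between 1036 and 1220 (median 1131). Ndufa1, a small subunit coded on the X chromosome, had the largest in the complex (0.391) and ran from 188 in library 42 to 602 in library 54 (median 361). It was at 323 in library 3 and so did not share the high value that most members had there. Ndufa4, a protein now also counted as a subunit of complex IV, gave 2180 to 3369 (median 2545), and its paralog Ndufa4l2, known as a gene induced by hypoxia, only 17.7 to 44.2 (median 30.2, SD of log2 values 0.357). Ndufa2 ran from 454 to 795 (median 528). The other 24 accessory members of complex I had medians between 550 (Ndufa7) and 1848 (Ndufb9) normalized counts and SDs of log2 values between 0.098 (Ndufs4) and 0.228 (Ndufa13), and 19 of them were highest in library 3. Listed at 0 in all libraries were Ndufa3, Ndufb1, Ndufb11b, Ndufb3l1, Ndufb3l2, Ndufb3l3, Ndufb4l1, Ndufb4l3, Ndufb4l4, Ndufb4l5, Ndufc1 and Ndufs6. Ndufa3, Ndufb1, Ndufc1 and Ndufs6 code for subunits found in complex I of cells in general, so their zeros are not read as absent mRNA, and the annotation against which the authors counted is not given in the sources used here. A pseudogene row outside the rule, Ndufs6-ps1, held 139 to 286 normalized counts (mean 194 ± 35.4, SD, n = 27).

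Complex II, succinate dehydrogenase, has 4 subunits and all were counted. Sdha, the flavoprotein, ran from 2637 in library 51 to 3371 in library 12 (median 2925), with 2883 in library 3. Sdhb, the iron-sulfur subunit, lay between 1189 and 1633 (median 1369), with its peak in library 3. The membrane anchors Sdhc and Sdhd gave 1149 to 1772 (median 1281) and 888 to 1228 (median 1057). The SD of log2 values was 0.085 for Sdha, 0.10 for Sdhb, 0.115 for Sdhd and 0.131 for Sdhc, so that all 4 lay below the median of all genes.

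In complex III, the core proteins Uqcrc1 (2085 to 2699, median 2306) and Uqcrc2 (1970 to 2964, median 2560) had the smallest SDs of log2 values, 0.087 and 0.126. The Rieske iron-sulfur protein Uqcrfs1, which passes electrons towards cytochrome c, had the largest, 0.231. It ran from 1016 in library 51 to 1779 in library 18 (median 1442). Small subunits of the complex peaked in library 3, among them Uqcr11 (2322 to 3875, median 2671), Uqcrq (778 to 1343, median 955), Uqcrb (643 to 1096, median 797, SD 0.180) and Uqcr10 (625 to 1022, median 728). Uqcrh, the hinge protein, had a median of 1155 and was highest in library 3 as well. Uqcr11l1, Uqcrbl1 and Uqcrbl2 were listed at 0.

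Complex IV held both strongly and barely counted isoforms. Cox4i1 ran from 4979 to 8057 normalized counts (median 5680), Cox6a1 from 3189 to 6040 (median 3822), Cox5a from 1700 to 2918 (median 2014) and Cox5b from 1551 to 2263 (median 1805), each highest in library 3. Cox8a and Cox7a2l, the latter a protein that joins complexes III and IV in supercomplexes, had the smallest SDs of log2 values in the complex (0.118 and 0.121), with medians of 2646 and 1888. Cox7b ran from 1116 to 1886 (median 1309), and Cox6c and Cox7c had medians of 2496 and 2027 with larger SDs (0.241 and 0.216). Low isoforms were Cox4i2, known from lung and hypoxia (11.7 to 44.4, median 26.1), and Cox6b2, known from testis (3.03 to 22.1, median 10.8). Their SDs of log2 values were 0.375 and 0.602, and counting alone accounted for 58.2% of the variance of Cox4i2. The heart and muscle isoforms Cox6a2 (mean 6.67 ± 2.60, SD, n = 27) and Cox8b (mean 2.02 ± 1.39) stayed under the minimum of 10 counts, and Cox7a1, Cox7b2, Cox8c, Cox5bl1, Cox7a2l2 and Cox7cl1 were listed at 0.

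Complex V, ATP synthase, was led in counts by the subunits of its catalytic head. Atp5f1b, which holds the catalytic sites, ran from 11506 to 15286 normalized counts (median 13314) and Atp5f1a, its partner in the ring, from 6095 to 8317 (median 7573). Of the central stalk, Atp5f1c gave 1947 to 2557 (median 2295), Atp5f1d 1687 to 2525 (median 1949) and Atp5f1e 979 to 1895 (median 1150). Atp5f1b and Atp5f1c had the smallest SDs of log2 values in the complex (0.101 and 0.108), while Atp5mk, a small membrane subunit (330 to 677, median 424), and Atp5pb, of the peripheral stalk (796 to 1550, median 1221), had the largest (0.233 and 0.228). Atp5pb was at 1051 in library 3, below its median, whereas 15 of the 17 members of the complex had their highest value there. Atp5me, a membrane subunit, ran from 879 to 1668 (median 1059). The peripheral stalk members Atp5po (1709 to 2748, median 1946), Atp5pd and Atp5pf, the membrane subunits Atp5mf and Atp5mg and the inhibitor Atp5if1 had medians from 1266 (Atp5mf) to 1946 (Atp5po), and all 6 were highest in library 3. Atp5mc1l1, Atp5mc1l2, Atp5mc2l1, Atp5mc2l2, Atp5mgl1, Atp5mgl3, Atp5mgl4, Atp5mkl1, Atp5mpl and Atp5pdl1 were listed at 0.

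Summed over members, the complexes rose and fell together from rat to rat. Complex I gave 38248 ± 3126 normalized counts (SD, n = 27), complex II 6780 ± 361, complex III 12702 ± 1013, complex IV 27006 ± 2989 and complex V 44229 ± 3369. Relative to its mean, the spread was smallest for complex II (5.32%) and largest for complex IV (11.1%), with 7.62% to 8.17% for the others. Without library 3 the values were 5.02% for complex II, 7.75% for complex IV and 6.04% to 6.31% for the others. Every complex was highest in library 3, complex IV with 38027 against 31239 in the next library (19). The lowest sums were in library 42 for complex I, 51 for complexes II and III and 52 for complexes IV and V, all of the later depth block.

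**Figure D2:**
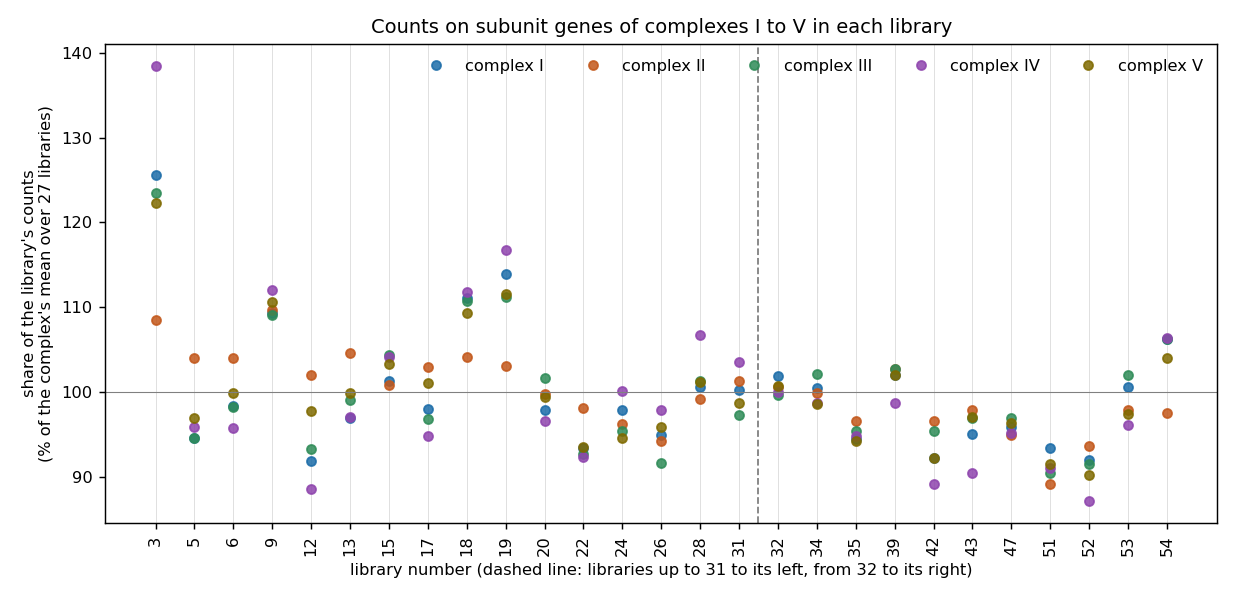
Share of each library's counts on the members of each complex, in % of that complex's mean over the 27 libraries; 1 column of points per library, with the libraries up to 31 left of the dashed line. Complexes I, III, IV and V lie close together in most libraries, library 3 is highest for all but complex II, and complex II moves less than the rest.

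Ratios among complexes I, III, IV and V were steadier than the sums of these complexes, with SDs of 2.04% to 4.59% of the mean against 7.62% to 11.1%. The ratio of complex I to complex III counts varied by 2.04% (SD as a share of its mean) over the 27 rats, between 2.90 and 3.12, and that of complex I to complex V by 2.27%. Ratios with complex II varied by 4.22% (complex V) to 7.76% (complex IV), and those with complexes I (5.82%) and IV varied more than the complex II sum itself (5.32%). Without library 3 those with I and IV varied by 5.01% and 6.44%, beside 5.02% for the sum, so only that with IV varied more. The ratio of complex II to complex IV was lowest in library 3 (0.197) and highest in library 12 (0.289). Spearman's rho of the sums was 0.930 for complexes I and III and 0.919 for I and IV, but 0.518 for II and IV, and 0.460 for the last pair without library 3. The other pairs of complex II were closer, with 0.813 for V, 0.666 for III and 0.611 for I. Complexes IV and V had 0.820. Within the depth blocks, rho of complexes II and IV was 0.279 in libraries up to 31 and 0.782 in those from 32.

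Spread over rats was small for most members. On the log2(normalized count + 1) scale, the 78 members had a median SD of 0.148. All 11730 genes that reached a mean count of 10 had a median SD of 0.190, and 60 of the 78 members lay below it. By complex it was 0.145 for I, 0.108 for II, 0.155 for III, 0.160 for IV and 0.161 for V. A chi-square dispersion test against counting noise called all 78 members, beside 89.8% of all genes. Counting accounted for a median of 7.56% of the members' variance, from 1.16% for Cox6c to 58.2% for Cox4i2. The 11730 genes were not matched to the members in count, and counting noise weighs more in the SD of low genes. The median of the members' means was 1188 normalized counts.

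Members followed one another across the rats. The median Spearman correlation over all 3003 pairs of members was 0.534, against -0.005 over all pairs among the 11730 genes, and 93.7% of the member pairs were positive. All pairs share the same 27 libraries and size factors, so these are descriptions without a test. The median was 0.490 without library 3, 0.582 in libraries up to 31 and 0.618 in libraries from 32. High correlation within a list was not particular to the members: the median over pairs of cytosolic ribosomal proteins was 0.611, or 0.564 without library 3, 0.703 in libraries up to 31 and 0.618 in those from 32. It was 0.308 for glycolytic enzymes, 0.304 for mitochondrial ribosomal proteins, 0.109 for cycle enzymes, 0.085 for assembly factors, 0.026 for electron carriers and -0.0098 for regulators of mitochondrial biogenesis. Pairs within a complex (0.520) were no closer than pairs between complexes (0.538). Within complexes the medians were 0.618 for IV, 0.561 for V, 0.501 for I, 0.473 for III and 0.454 for II, and between complexes they ran from 0.491 (I and II) to 0.612 (IV and V).

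**Figure D3:**
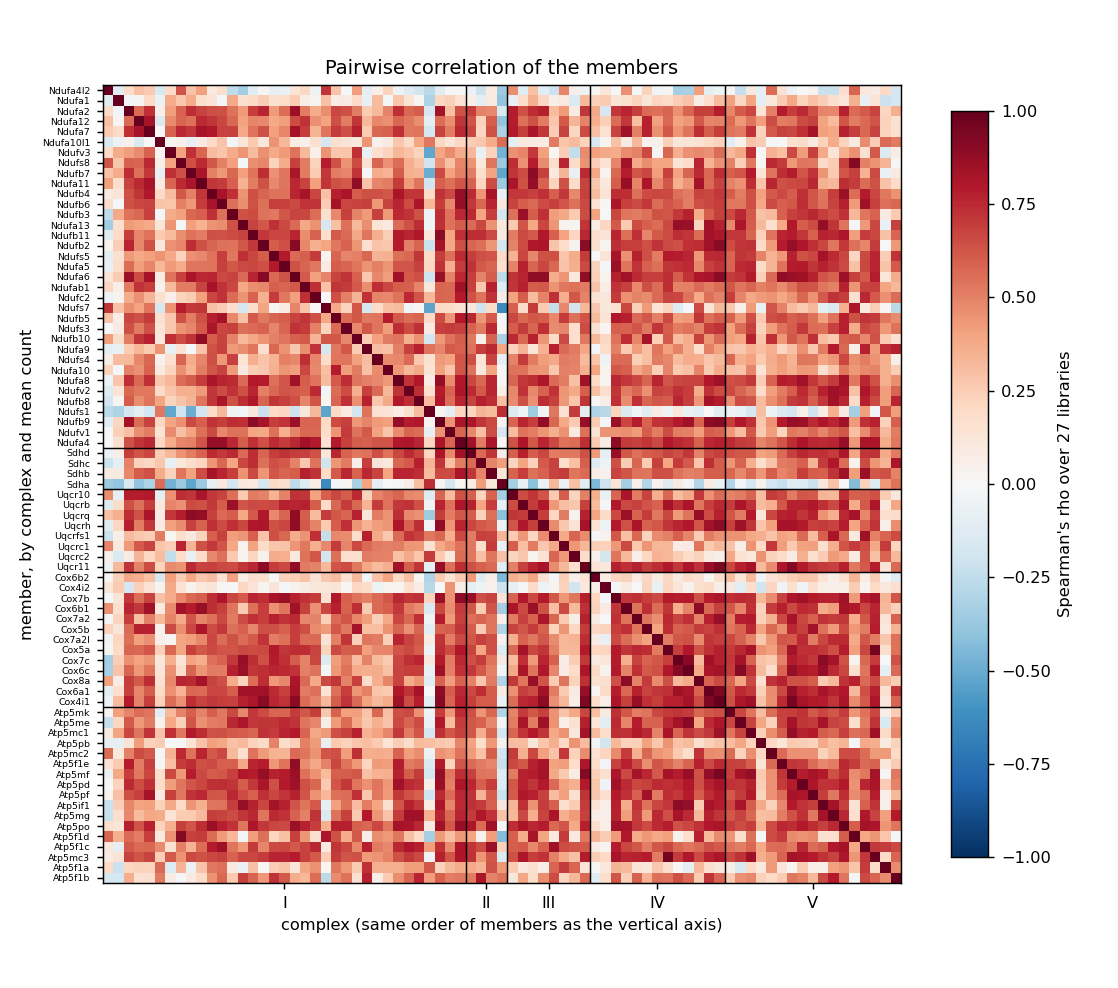
Spearman's rho over 27 libraries between members, ordered by complex (black lines) and mean count; red is positive, blue negative. Red extends across the borders of the complexes, and pale or blue bands mark members such as Sdha, Ndufs1, Cox4i2, Ndufa1 and Ndufa4l2.

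The 3 closest pairs joined different complexes, as did 2125 of all 3003 pairs of members. Cox5a and Atp5mc3, a gene for the membrane ring of ATP synthase, reached a rho of 0.957, Cox4i1 and Atp5mf 0.949, and Uqcr11 and Cox4i1 0.935. Next came Cox4i1 and Cox6a1, both of complex IV, with 0.932. These pairs were singled out by their values, and each stayed at 0.864 or above within both depth blocks. At the other end, Ndufs7 and Sdha gave -0.638 (-0.668 in libraries up to 31 and -0.309 in those from 32) and Ndufs1 and Ndufs7, both of complex I, -0.529.

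Against the mean z score of the other 77 members, 66 of the 78 had a rho above 0.5. Atp5po, of the peripheral stalk of ATP synthase, came first with 0.946, followed by Ndufa4 (0.920) and Cox7b (0.907). Under 0.2 lay 6 members, namely Sdha (-0.0061), Cox4i2 (0.031), Ndufa4l2 (0.068), Ndufs1 (0.125), Ndufa1 (0.171) and Cox6b2 (0.184). Cox4i2, Ndufa4l2 and Cox6b2 were the members with the fewest counts, whereas Sdha and Ndufs1 were well counted and among the less variable. The 19 core subunits of complexes I, II, III and V had a median rho of 0.590 and a median SD of log2 values of 0.126, and the 59 others, with all of complex IV, whose catalytic core is coded in mitochondrial DNA, 0.744 and 0.161. Without library 3 the medians of rho were 0.550 and 0.714. By complex the medians of core and other subunits were 0.632 and 0.742 in complex I, 0.590 and 0.810 in III, and 0.565 and 0.782 in V. In complex IV the order was the other way, with 0.795 for Cox4i1, Cox5a and Cox5b and 0.722 for the rest, and with these 3 counted as core the medians were 0.615 for 22 core subunits and 0.743 for 56 others. Atp5f1a, with 0.400, and Uqcrc2, with 0.380, were the core subunits of complexes V and III that followed the others least.

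**Figure D4:**
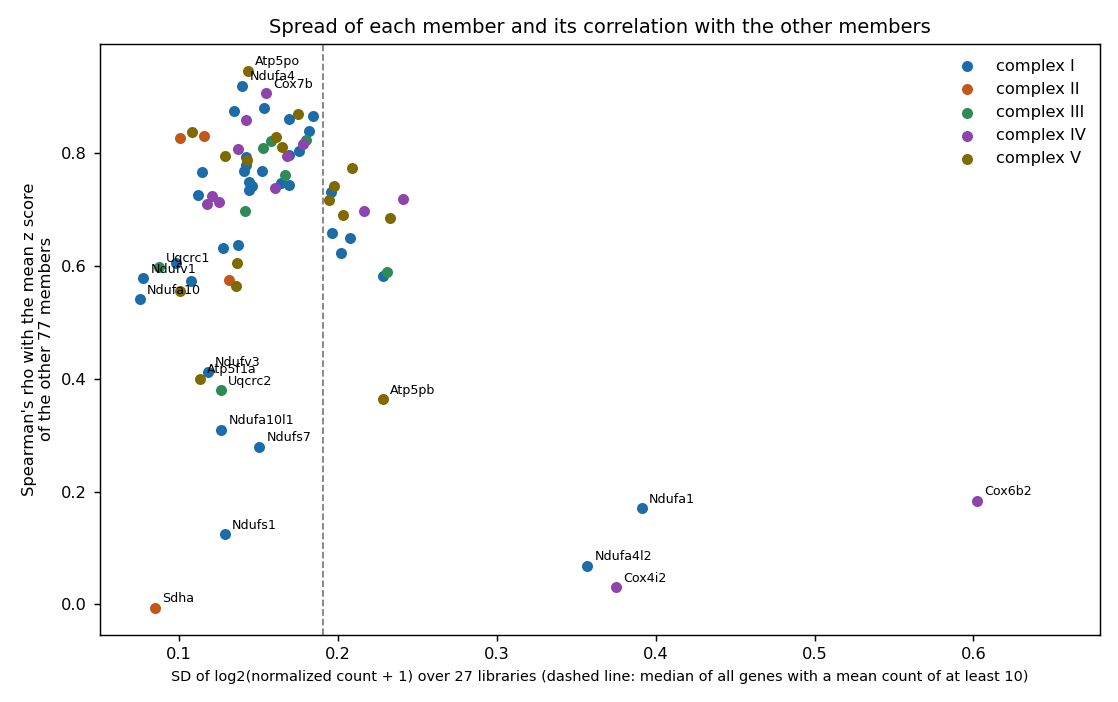
Each point is a member: the horizontal axis is its SD of log2(normalized count + 1) over 27 libraries, the vertical axis its Spearman's rho with the mean z score of the other members, and the dashed line the median SD of the 11730 genes that reached a mean count of 10. Most members cluster at a small SD and a high rho, Sdha and Ndufs1 have a small SD with a rho near 0, and Cox6b2, Ndufa1, Cox4i2 and Ndufa4l2 have a large SD with a low rho.

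Paralogous subunits were compared over the 27 rats in 7 pairs with enough counts, out of 10 pairs listed, by permutation tests of Spearman's rho and Pearson's r with Benjamini-Hochberg adjustment over the 7. The genes Atp5mc1, Atp5mc2 and Atp5mc3 code for the same mature ring subunit of ATP synthase. Atp5mc1 (996 to 1548, median 1146) and Atp5mc3 (2443 to 4049, median 2724) moved together with rho 0.847 and r 0.896 (permutation p = 1e-05 for both, the smallest these permutations can give, adjusted p = 7.0e-05 for both). Without the 2 libraries farthest from the median of Atp5mc1, r was 0.790, and rho was 0.888 and 0.800 in the earlier and later depth blocks. Atp5mc2 (1053 to 1626, median 1176) followed Atp5mc1 with rho 0.464 and r 0.698 (permutation p = 0.0149 and 0.00025, adjusted p = 0.0370 and 0.000437). Without the farthest 2 libraries r fell to 0.400 and rho to 0.327 (adjusted permutation p = 0.109 and 0.260). Without library 3, r stayed past the threshold at 0.512 and rho, at 0.400, did not (adjusted permutation p = 0.0120 and 0.104). With the depth block regressed out both were past it, with r 0.729 and rho 0.530 (adjusted permutation p = 0.00021 and 0.0112). Within the blocks r was 0.764 and rho 0.485 in libraries up to 31 (adjusted permutation p = 0.00196 and 0.101), and 0.616 and 0.545 in those from 32 (0.103 and 0.206).

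Atp5mc2 and Atp5mc3 had rho 0.424 and r 0.724 (permutation p = 0.0286 and 0.00016, adjusted p = 0.05005 and 0.000373), and without the 2 libraries farthest from the median of Atp5mc2 r was 0.435 and rho 0.281 (adjusted permutation p = 0.105 and 0.305). Without library 3 r was 0.516 and rho 0.355 (adjusted permutation p = 0.0120 and 0.131). With the depth block regressed out rho also passed the threshold, at 0.625 beside an r of 0.804 (adjusted permutation p = 0.00203 and 3.5e-05). Within the blocks r was 0.830 and rho 0.491 in libraries up to 31 (adjusted permutation p = 0.0011 and 0.101), and 0.639 and 0.718 in those from 32 (0.103 and 0.0568). Cox7a2 (1211 to 1893, median 1350) and Cox7a2l had rho 0.465 and r 0.689 (permutation p = 0.0159 and 9.0e-05, adjusted p = 0.0370 and 0.000315). Without the farthest 2 libraries r was 0.370 and rho 0.326 (adjusted permutation p = 0.118 and 0.260), and without library 3 they were 0.527 and 0.401 (0.0120 and 0.104). With the block regressed out r was 0.642 and rho 0.499 (adjusted permutation p = 0.00077 and 0.0160). Within the blocks r was 0.755 and rho 0.624 in the 16 libraries up to 31 (adjusted permutation p = 0.0011 and 0.0381), but 0.203 and 0.209 in the 11 from 32 (0.690 and 0.753), and the difference was not tested. Over all libraries no relation was detected for Cox4i1 and Cox4i2 (rho 0.066, r 0.286, permutation p = 0.747 and 0.144), Cox6b1 (1161 to 1734, median 1351) and Cox6b2 (rho 0.234, r 0.262, permutation p = 0.238 and 0.186), or Ndufa4 and Ndufa4l2 (rho -0.0037, r 0.113, permutation p = 0.987 and 0.578). Within the depth blocks Ndufa4 and Ndufa4l2 had opposite signs, with r 0.598 and rho 0.429 in libraries up to 31 (adjusted permutation p = 0.0194 and 0.138) and r -0.254 and rho -0.382 in those from 32 (0.683 and 0.436), a difference that was not tested. With the block regressed out r was 0.379 (adjusted permutation p = 0.0720). Cox6b1 and Cox6b2 also had opposite signs, with r 0.318 and rho 0.359 in libraries up to 31 (adjusted permutation p = 0.229 and 0.199). In those from 32 they had r -0.230 and rho -0.118 (0.683 and 0.859), and this difference was not tested either.

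As a share of the counts of a pair, Cox4i2 made up 0.469% ± 0.110 (SD, n = 27), Cox6b2 0.834% ± 0.342 and Ndufa4l2 1.19% ± 0.309. Cox6a2 and Cox8b made up 0.169% ± 0.066 of the counts with Cox6a1 and 0.076% ± 0.052 of those with Cox8a. Counts on close paralogs depend on how reads that fit both were assigned, which is not given in the sources used here.

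Between the depth blocks, edgeR's quasi-likelihood test found 8 of 78 members lower and 2 higher in the libraries from 32 (Benjamini-Hochberg adjusted p under 0.05). Of all 11716 genes tested, 9.18% were lower and 8.85% higher, so the members' count of lower genes lay near the background. Ndufa13, a membrane-arm subunit, fell from a median of 856 (725 to 1237) to 719 (631 to 767), a log2 difference of -0.32 ± 0.066 (SE, adjusted p = 0.00088). Cox6c changed from a median of 2694 to 2291 (log2 difference -0.30 ± 0.077, adjusted p = 0.0067) and Cox7c from 2199 to 1850 (-0.29 ± 0.065, adjusted p = 0.0026). Atp5if1, the inhibitor that keeps ATP synthase from running backwards, went from 1911 to 1610 (-0.25 ± 0.060, adjusted p = 0.0033). In each of these 4 genes the values of the blocks overlapped, and the same held for all members called.

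Lower by smaller amounts in the later block were Atp5mg (log2 difference -0.24), Ndufs5 (-0.15), Sdhc (-0.15) and Atp5f1b (-0.14). Higher were Ndufa4l2, with medians of 27.0 and 36.5 (0.38 ± 0.12, adjusted p = 0.025), and Ndufs7, with 951 and 1058 (0.17 ± 0.049, adjusted p = 0.012). All 10 remained called without library 3, when the counts were 8 lower and 4 higher, beside 8.44% and 10.4% of all genes. Over the 78 members the median log2 difference was -0.067, against -0.00062 over all genes. By complex the median was -0.057 for I, -0.075 for II, -0.059 for III, -0.10 for IV and -0.099 for V.

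The neuron marker score asked whether subunit mRNAs moved with the neuron content of the tissue piece. Fitted with the depth block as a covariate, 9 members (11.5%) fell and 3 (3.85%) rose with the score, against 9.74% of 12027 genes falling and 11.8% rising. The members' share of falls thus lay near the background and their share of rises below it. The members that rose were Ndufs1 (log2 change 0.088 ± 0.022 per 1 SD of the score, adjusted p = 0.0064), Ndufa10l1 (0.087 ± 0.022, adjusted p = 0.0073) and Sdha (0.056 ± 0.016, adjusted p = 0.013), by edgeR. Those that fell were led by Atp5mk (-0.15 ± 0.037, adjusted p = 0.0061), Atp5f1e (-0.11 ± 0.035, adjusted p = 0.024), Ndufb7 (-0.11 ± 0.036, adjusted p = 0.029) and Atp5me (-0.10 ± 0.031, adjusted p = 0.018), followed by Cox6c, Ndufa13, Cox7c, Atp5mc2 and Uqcr10.

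The falling calls were lost without library 3, whose neuron score was the lowest and whose member counts were the highest. Without it none of the 78 members fell in the edgeR fit, with 7 members at an unadjusted p under 0.05 in either direction, while Ndufs1 (0.092, adjusted p = 0.030), Ndufa10l1 (0.11, adjusted p = 0.0098) and Sdha (0.063, adjusted p = 0.034) were still called. Calls also became fewer over all genes, with 3.15% falling and 4.67% rising, so the members' share of rises lay near the background. The median slope of the 78 members was -0.050 with library 3 and -0.0017 without it. Without libraries 3 and 19, Ndufa10l1 alone was called (0.11, adjusted p = 0.022, beside 2.27% of genes rising and 2.78% falling), and the slopes of Ndufs1 (0.085, adjusted p = 0.075) and Sdha (0.056, adjusted p = 0.087) kept their size but missed the threshold.

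Other choices changed the calls as well. Without libraries 12 and 20, 2 members fell and 1 rose, beside 5.45% and 5.32% of all genes, while the members' median slope was -0.049. Ndufs1 kept its call there (0.070, adjusted p = 0.0498) and Ndufa10l1 (0.072, adjusted p = 0.057) and Sdha (0.048, adjusted p = 0.056) did not. Without the depth block as a covariate 24 members fell and 1, Ndufs1 (0.068, adjusted p = 0.032), rose, beside 10.2% and 9.42% of all genes. The slope of Ndufa10l1 was then 0.062 (adjusted p = 0.062) and that of Sdha 0.033 (adjusted p = 0.194).

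Within the depth blocks most slopes had opposite signs. In libraries up to 31, which include library 3, 71 of 78 members had a negative slope (median -0.083), and 32 fell and 1 rose, beside 10.1% and 12.5% of all genes. In libraries from 32, 73 had a positive slope (median 0.070) and none passed the test by edgeR, with 21 of 79 tested at an unadjusted p under 0.05, beside 0.0412% of all genes rising and 0.206% falling. Cox6c, for example, had -0.15 ± 0.038 in the earlier and 0.076 ± 0.046 in the later block, whereas Atp5mk was negative in both, with -0.19 ± 0.038 and -0.012 ± 0.070. The difference between the slopes was tested as an interaction, added after the data were seen. No member was called in either direction, beside 0% of 12108 genes with a higher slope from 32 and 0.0165% with a lower one, and the smallest adjusted p was 0.070, for Ndufb3 (0.24 ± 0.060). Unadjusted p was under 0.05 for 60 of the 78 members, for 20 without library 3 and for 4 without libraries 3 and 19.

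**Figure D5:**
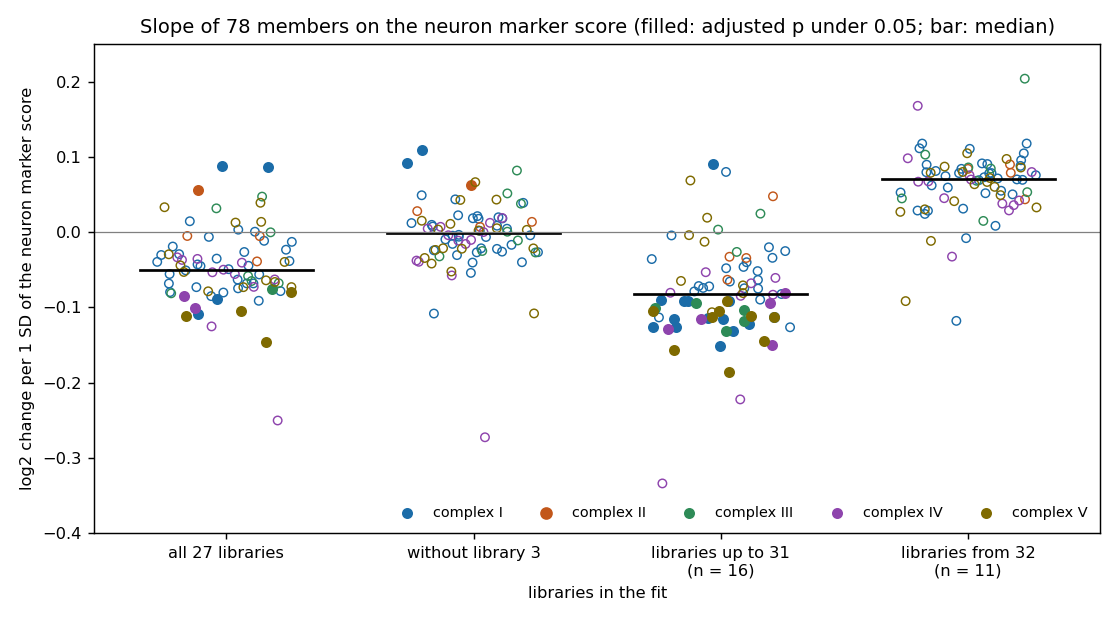
Fitted log2 change of each of the 78 members per 1 SD of the neuron marker score in 4 sets of libraries; filled points passed an adjusted p of 0.05 and bars are medians. The median is below 0 with all libraries, near 0 without library 3, below 0 in libraries up to 31 and above 0 in libraries from 32.

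No member was called with the oligodendrocyte, meningeal or immediate early gene score, in either direction, by edgeR or by DESeq2's Wald test. With the oligodendrocyte score 8 members had an unadjusted p under 0.05 in edgeR and 7 in DESeq2, and Sdhc came closest (log2 change 0.055 ± 0.020 per 1 SD, edgeR adjusted p = 0.13). Of 12027 genes, 2.26% rose and 0.964% fell with that score. For the meningeal score the unadjusted counts were 4 and 2, against 2.69% of 11964 genes rising and 0.0251% falling. For the immediate early genes, which mark recent neuronal activity, both counts were 0, while 0.142% of genes rose and 0% fell. The members' median slopes were 0.031, -0.033 and -0.017 with the 3 scores, and -0.015, -0.015 and -0.012 without library 3. With the oligodendrocyte score 69 of the 78 slopes were positive over all libraries, and 62 were negative without library 3. In that fit 1 member, with a negative slope, had an unadjusted p under 0.05 in edgeR. The oligodendrocyte median was 0.045 in libraries up to 31 and -0.015 in those from 32.

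Related gene lists, taken by symbol, moved to different degrees with the mean z score of the 78 members, given here as Spearman's rho over the 27 rats without a test. It was 0.952 for 69 mitochondrial ribosomal proteins, 0.895 for 39 assembly factors, 0.693 for 75 cytosolic ribosomal proteins, 0.689 for 16 electron carriers, 0.609 for 14 enzymes of the tricarboxylic acid cycle and 0.548 for 15 of glycolysis. For 10 regulators of mitochondrial biogenesis, such as Ppargc1a, Nrf1 and Tfam, it was -0.131. Without library 3 the values were 0.946, 0.882, 0.656, 0.651, 0.562, 0.556 and -0.150. Within the depth blocks the regulators stood at -0.276 in libraries up to 31 and -0.491 in those from 32, the electron carriers at 0.565 and 0.855, the cycle enzymes at 0.479 and 0.791 and the glycolytic enzymes at 0.515 and 0.845.

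In the fit across depth blocks, 21 of 75 cytosolic ribosomal proteins were lower from 32 and none higher, with Rps27 changing most (-0.59 ± 0.10, edgeR adjusted p = 0.00014). Of all genes 9.18% were lower and 8.85% higher, or 8.44% and 10.4% without library 3. Among 69 mitochondrial ribosomal proteins 9 were lower, led by Mrps14 (-0.24), and 2 higher, led by Mrpl38 (0.24). Of the electron carriers Coq8b was higher (0.22) and Etfa lower (-0.40), and of the regulators Polrmt, the mitochondrial RNA polymerase, was higher (0.27) and Yy1 lower (-0.22). Cox17, a copper chaperone of complex IV (-0.29), and Idh2 (-0.15) were the only assembly factor and cycle enzyme called, and Eno1 (0.16) led 3 glycolytic genes that were higher. Without library 3, no cycle enzyme was called, 2 assembly factors were higher and 2 lower, and the mitochondrial ribosomal proteins had 6 higher and 5 lower.

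With the neuron score, 62 of 76 cytosolic ribosomal proteins fell, led by Rps27 (-0.20 ± 0.035, edgeR adjusted p = 0.00046), and 5 fell without library 3. Of all genes 9.74% fell and 11.8% rose, or 3.15% and 4.67% without library 3. Cs, citrate synthase, rose (0.14 ± 0.025, adjusted p = 0.00044), as did Ppargc1a, the coactivator of mitochondrial biogenesis (0.23 ± 0.082, adjusted p = 0.041), Pkm (0.066), Ndufaf7 (0.076) and Coq4 (0.088). Idh2 (-0.083), Etfa (-0.13), Uqcc6 (-0.13) and Mrpl52 (-0.11) fell. Of the 14 cycle enzymes 3 rose and 1 fell, and without library 3 the counts were 2 and 0. Without it, 2 assembly factors and 1 glycolytic gene rose, and the calls among regulators, electron carriers and mitochondrial ribosomal proteins were lost.

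Of 11652 other genes, those closest to the members' mean z score were Ubl5 (rho 0.911), a small ubiquitin-like protein, Scg5 (0.910), a chaperone of prohormone processing, Ppia (0.904), a prolyl isomerase, Cfl1 (0.904), an actin-severing protein, Psmb5 (0.900), a proteasome subunit, Nme1 (0.900) and Hint1 (0.896), followed by Ufc1, Mrpl20 and Psmb1. At the other end stood Ep400 (-0.918), a chromatin remodeller, Zfyve26 (-0.879), Adcy5 (-0.849), an adenylyl cyclase, Wdfy3 (-0.840), Ago1 (-0.833), Syt7 (-0.825) and Ncam1 (-0.819), then Kdm5b, Mical3 and Hivep3. Without library 3 the values ran from 0.863 to 0.901 and from -0.908 to -0.789. The mean z score itself had a rho of -0.0079 with the neuron, -0.024 with the oligodendrocyte, 0.123 with the astrocyte and -0.253 with the meningeal score, and of -0.269 with the library total. With the neuron score it was -0.212 in libraries up to 31, 0.536 in those from 32 and 0.111 without library 3. With the meningeal score it was -0.094 and -0.491 in the earlier and later block, and with the library total -0.403 and 0.173.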

How the data were processed

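RNA of mPFC tissue from 27 rats was sequenced as single reads. The authors deposited raw counts per gene and library, without normalization. Trimmomatic, STAR and HTSeq are named in the submitters' processing notes, while versions, genome build, annotation and strandedness are not given in the sources used here. The labels and the paper's methods differ on the position of the section and the library kit. Library totals ran from 4907255 to 12771309 counts. Reads without molecular identifiers are not independent molecules, so counting noise covers counting error only.

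Gene IDs were matched to RefSeq symbols (GRCr8 gene list) for 28157 of 36865 rows, which held 99.7% of counts; 436 rows carry a locus suffix, none of them a member. The members and the gene lists were chosen with earlier results of these data known. Normalized counts used median-of-ratios size factors, the method of DESeq2 (1.42.0). Tests used edgeR (4.0.16, R 4.3.3) with its quasi-likelihood F-test, TMM scaling, filterByExpr and Benjamini-Hochberg adjustment over all genes tested, two-sided at 0.05, with the depth block as covariate in fits on marker scores, which are mean z scores scaled to 1 SD. For SDs, correlations and marker scores a pseudocount of 1 was added before taking log2, which narrows the spread of low genes. It was not used in the edgeR fits, which took raw counts. Each sample is a separate rat. On simulated counts with 200 genes changed by 0.5 on the log2 scale, the edgeR fit recovered 156 with 11 false calls for the block (11716 genes) and 190 with 12 for the neuron score (12027 genes). The members called changed less, from -0.32 to 0.38 for the block and from -0.15 to 0.088 for the score. Recovery at those sizes was not tested. In a separate simulation with 200 genes given spread beyond counting, the dispersion test recovered 186 with 10 false calls (11730 genes). Permutation tests drew 100000 permutations (scipy 1.17.1, Python 3.11.15).

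Genes named per complex are the 3 highest and 3 lowest in mean count, the 2 largest and 2 smallest in SD, the listed core subunits (for complex IV Cox4i1, Cox5a and Cox5b), the isoform pairs, the 4 largest changes per direction of each fit and all members with a mean count under 10, and per list the largest change in each direction; 1 member that this rule names is not reported here. Alternatives were DESeq2, other scalings, no filter on low counts, a pseudocount of 0.1, no block covariate, single blocks, and fits without libraries 12 and 20 (most 18S ribosomal RNA counts), without the 2 libraries farthest on a score and, added after seeing the data, without library 3.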

Additional observations from a re-analysis of the deposited data

How the results depend on the processing

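Of the results above, the level, spread and correlation of the complexes stayed within the spread between libraries or within 1.5 times under the alternatives run, except in libraries up to 31, where the median within complex II was 0.291 (0.454 in all) and rho of the sums of complexes II and IV 0.279 (0.518 in all), and in libraries from 32, where the latter was 0.782. The counts of members that followed the neuron score did not. The shares over all genes that go with each count are given above. Without libraries 12 and 20, 1 member rose and 2 fell. Without the block covariate the counts were 1 and 24, without libraries 3 and 19 they were 1 and 0, in libraries up to 31 they were 1 and 32, in libraries from 32 they were 0 and 0, and without library 3 none fell. Without library 3, 4 members were higher in the later block. In libraries from 32 the slopes on the neuron score turned positive for Ndufa13 (0.052), Ndufb7 (0.024), Uqcr10 (0.015), Cox6c (0.076), Cox7c (0.068), Atp5f1e (0.049), Atp5mc2 (0.030) and Atp5me (0.027), with none past the threshold. The cause was not tested. The rank correlation of Cox4i1 and Cox4i2, uncalled throughout, turned to -0.11 without the farthest 2 libraries and -0.046 without library 3, and that of Ndufa4 and Ndufa4l2 to 0.035 with TMM, 0.19 with the block removed and 0.0054 without libraries 12 and 20. The planned fit on mitochondrial genome transcripts and its alternatives were not run, since no row matched those genes. Depth limits Cox4i2, Cox6b2 and Ndufa4l2, in which counting alone made up 58.2%, 52.3% and 55.5% of the variance. No paired analysis was possible because all libraries form 1 group.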
